A study of Homo sapiens with 4 samples.

Results

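A set of 10 genes of the NRF2 antioxidant program was followed in a pair of HER2-positive breast cancer cell lines and in 1 lapatinib-resistant clone of each. The genes were NFE2L2, which encodes NRF2 itself, and its targets NQO1, HMOX1, GCLC, GCLM, TXNRD1, SRXN1, SLC7A11, AKR1C1 and AKR1B10. All 10 genes were found by matching the RefSeq accessions of the array's probes to gene symbols, through 15 of 41000 probes, and 16422 genes were named in this way in all. NRF2 is a transcription factor that KEAP1 holds in the cytoplasm and hands over for degradation. Oxidants and electrophiles interrupt this, and NRF2 then pairs with a small MAF protein at antioxidant response elements, where the repressor BACH1 also binds. Its targets make glutathione, renew thioredoxin, reduce quinones and carbonyls and break down heme, and they are known for their part in the response of cancer cells to drugs.

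SkBr3 and BT474 are human breast cancer cell lines with amplified ERBB2, the gene of the receptor HER2, and lapatinib is an inhibitor of the kinases of HER2 and EGFR. The parental SkBr3 and BT474 cells were labelled as vehicle treated. The resistant cells, called SkBr3/Lap and BT474/Lap here, were raised in lapatinib at rising concentrations up to 1 μM and were labelled as lapatinib treated, so that resistance, the growth of a single clone and the presence of the drug cannot be told apart. Total RNA from each of the 4 cell populations was labelled with Cy3 and hybridized to 1 array of the Agilent 4 × 44 K format. There was 1 array per group, no test was made between groups, and each fold change compares those 2 arrays and not the conditions.

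A level is given as the log2 of the probe's processed signal minus the log2 of the 75th percentile of its array, so that 0 is the signal of the probe at that percentile. The 75th percentile lay between 1115 and 2074, and 66.6% to 74.0% of the probes were well above background. The lowest signal so marked on an array was between 13 and 16, and no spot was saturated. The array of SkBr3/Lap lay on a slide of its own and the other 3 shared a slide, so that slide and clone cannot be told apart in the SkBr3 pair. ERBB2 and the other markers of HER2-positive luminal cells were well above background on all 4 arrays, except CDH1 on the arrays of SkBr3 and its clone, and their summed signal was 489 to 818 times the 75th percentile. The summed signal of leukocyte markers was 0.14 to 0.47 times that percentile with PTPRC never above background, that of endothelial markers was 0.16 to 0.78 times, and that of liver markers was at most 0.10 times. Of the 5 matched fibroblast markers, COL3A1 and PDGFRB were well above background in SkBr3/Lap and none elsewhere, and the summed signal of all 5 was 0.21 times the percentile there against 0.01 to 0.02 times on the other arrays. The part of these cell types in the values of the NRF2 genes was not tested.

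HMOX1, AKR1B10 and AKR1C1 were the NRF2 targets whose signals were at least 2-fold higher in both resistant clones, and SLC7A11 was far lower in BT474/Lap alone. With a change of at least 2-fold counted, 3 of the 10 genes were higher in SkBr3/Lap than in SkBr3, against 14.1% of the 12159 genes kept, and 1 was lower, against 14.4%. In BT474/Lap, 4 were higher than in BT474, against 9.2% of all genes, and 2 were lower, against 5.4%. One of those 4, AKR1C1, was not well above background in BT474, and the count was 3 among the 9 genes well above background on all arrays. Genes were kept at a signal of at least 100 on at least 1 array. AKR1C1 passed this filter only through SkBr3/Lap, where it was counted as higher. SLC7A11, 1 of the 2 lower in BT474/Lap, passed it only through BT474, against which it was counted. In SkBr3/Lap the median log2 fold change was 0.45 over the 10 genes, 0.054 over the 9 genes and -0.06 over all genes. In BT474/Lap the median was 0.70 over the 10 genes, 0.51 over the 9 genes and -0.09 over all genes. In both clones at once, 3 of the 10, or 30%, rose by at least 2-fold by their signals, against 3.07% of all genes. With AKR1C1 at its limit in BT474/Lap, under 2-fold, HMOX1 and AKR1B10 remain. None was lower in both, against 1.45%, and none changed by 2-fold in opposite directions, against 3.58%. NFE2L2, NQO1 and GCLM stayed under 2-fold in both clones, as did 64.9% of all genes.

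**Figure D1:**
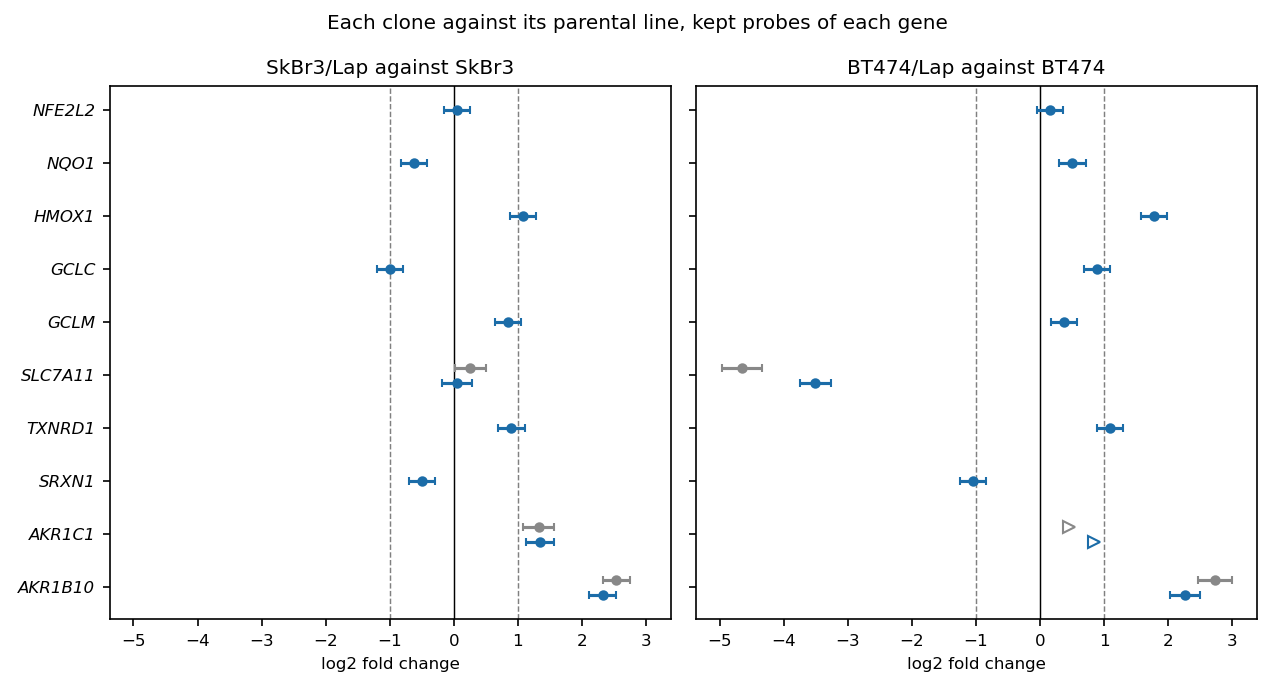
Log2 fold change (x axis) of each kept probe of the 10 genes, in SkBr3/Lap against SkBr3 (left) and BT474/Lap against BT474 (right), with 1 array per group. Blue points are the probe that stands for the gene, grey points are its other kept probes, bars are the error estimate of the scanning software and open triangles are lower limits for AKR1C1, with dashed lines at 2-fold. The points of AKR1B10 lie right of 2 in both panels, and those of SLC7A11 lie near 0 on the left and left of -3 on the right.

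The gene of NRF2 itself differed by less than the error estimate in both pairs. The level of NFE2L2 was 1.75 and 1.81 in parental and resistant SkBr3 cells and 2.05 and 2.21 in parental and resistant BT474 cells on the log2 scale. All 4 arrays lay close together, within a range of 0.46. The log2 fold change was 0.05 ± 0.20 in SkBr3/Lap and 0.15 ± 0.20 in BT474/Lap, where the error is the estimate of the scanning software for the signals of both arrays and does not cover the spread between cultures. KEAP1, which directs NRF2 to degradation, was at 0.98-fold and 1.04-fold. BACH1, the repressor that competes at the same elements, had log2 fold changes of -0.32 and -0.22. Of the small MAF partners, MAFF was at 0.77 in SkBr3/Lap and -0.02 in BT474/Lap, MAFG at 0.14 and -0.29, and MAFK at 0.92 and -0.28. None of these 5 regulators reached 2-fold in either clone, although median scaling put MAFK at 1.08 in SkBr3/Lap.

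HMOX1 encodes heme oxygenase 1, which opens the ring of heme and yields biliverdin, iron and carbon monoxide. Its probe was printed in 10 spots, and the log2 level was 1.38 and 2.46 in parental and resistant SkBr3 cells and -1.37 and 0.41 in parental and resistant BT474 cells. Both SkBr3 arrays were higher than both BT474 arrays, and each clone was higher than its parental line. HMOX1 rose 2.11-fold in SkBr3/Lap (log2 1.08 ± 0.20) and 3.43-fold in BT474/Lap (log2 1.78 ± 0.20). The spots of one array differed by an SD of 0.03 to 0.05 on the log2 scale, which does not cover the spread between cultures. The SkBr3 value lay close to 2-fold and ranged from 0.99 to 1.24 over the alternative settings, while that of BT474/Lap stayed between 1.57 and 1.89. BLVRA, whose product turns biliverdin into bilirubin, went the other way, 5.22-fold lower in SkBr3/Lap and 2.03-fold lower in BT474/Lap.

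AKR1B10 had the largest rise among the 10 genes in SkBr3/Lap, and the largest rise in BT474/Lap among those with both signals well above background. It encodes an aldo-keto reductase that reduces retinal and reactive aldehydes. The log2 level was -2.05 and 0.27 in parental and resistant SkBr3 cells and -4.50 and -2.23 in parental and resistant BT474 cells. The clone was higher than its parental line in both pairs, and parental SkBr3 and BT474/Lap were level within the error. AKR1B10 rose 5.0-fold in SkBr3/Lap (log2 2.32 ± 0.20) and 4.81-fold in BT474/Lap (log2 2.26 ± 0.23). A second probe gave 5.81-fold and 6.62-fold. Both of these rises stayed past 2-fold under each of the 11 alternative settings. Its neighbor on chromosome 7, AKR1B1, which encodes aldose reductase, rose 8.68-fold in SkBr3/Lap and 2.09-fold in BT474/Lap.

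AKR1C1 encodes an aldo-keto reductase that inactivates progesterone and reduces ketones and aldehydes. Its signals were low on every array, and it passed the filter on low signals only through SkBr3/Lap. The processed signal was 65.9 in parental and 312.5 in resistant SkBr3 cells. It was 3.56 in parental BT474 cells, which was not well above background, and 41.6 in the resistant clone. Scaled to the 75th percentile, the log2 levels were -4.08 and -2.73 in the SkBr3 pair and -8.34 and -5.34 in the BT474 pair, with the clone higher in both. The level was 2.55-fold higher in SkBr3/Lap (log2 1.35 ± 0.22), and only normexp background correction with quantile normalization took it under 2-fold, to 0.87. In BT474/Lap it was at least 1.80-fold higher, with the dimmest signal that counted as above background on the BT474 array standing in for the one measured, and the measured signals differed by 3.01 on the log2 scale. The second kept probe gave 2.51-fold and at least 1.38-fold. The third probe did not pass the filter, gave 1.5-fold in SkBr3/Lap and was not well above background in BT474 and its clone. AKR1C1 is nearly identical in sequence to its neighbor on chromosome 10, AKR1C2, so that its probes may also bind that transcript, and AKR1C2 had no matched probe. AKR1C3, which lies beyond AKR1C2 and makes testosterone and prostaglandin F, rose 14.4-fold in SkBr3/Lap and at least 22.0-fold in BT474/Lap. AKR1A1, an aldehyde reductase of the same family, had log2 fold changes of -0.60 and -0.42.

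The genes of glutathione synthesis did not move together. GCLC and GCLM encode the catalytic and the modifier subunit of glutamate-cysteine ligase, the enzyme of the rate-limiting step. The log2 level of GCLC was 0.86 and -0.15 in parental and resistant SkBr3 cells and -0.48 and 0.41 in parental and resistant BT474 cells. It was lower in the SkBr3 clone and higher in the BT474 clone than in the parental line. The change was 2.0-fold lower in SkBr3/Lap (log2 -1.0 ± 0.20), at the threshold itself, and log2 0.89 ± 0.20 in BT474/Lap. The SkBr3 value fell short of 2-fold under 4 of 11 alternative settings. The log2 level of GCLM was 1.11 and 1.96 in parental and resistant SkBr3 cells and -1.17 and -0.79 in parental and resistant BT474 cells, with both SkBr3 arrays far above both BT474 arrays. Its log2 fold change was 0.85 ± 0.20 in SkBr3/Lap and 0.38 ± 0.20 in BT474/Lap, so that neither reached 2-fold, although median scaling put the first at 1.0.

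SLC7A11 encodes the light chain of the cystine and glutamate antiporter, which brings in the cystine for glutathione. Its signals were low, with 49.4 and 94.8 in parental and resistant SkBr3 cells and 298.2 and 38.2 in parental and resistant BT474 cells, and it passed the filter only through BT474. All 4 signals were well above background, and that of BT474 stood apart above the others. Scaled to the 75th percentile, the log2 levels were -4.50 and -4.45 in the SkBr3 pair and -1.96 and -5.46 in the BT474 pair. The level was 11.3-fold lower in BT474/Lap (log2 -3.50 ± 0.24), and the log2 fold change in SkBr3/Lap was 0.04 ± 0.23. A second probe gave 25.2-fold lower in BT474/Lap and a log2 fold change of 0.26 in SkBr3/Lap. The third probe was not well above background on any array and did not pass the filter. SLC3A2, the heavy chain of the antiporter, had no matched probe.

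TXNRD1 encodes thioredoxin reductase 1, which uses NADPH to renew thioredoxin. The log2 level was 0.94 and 1.84 in parental and resistant SkBr3 cells and -1.35 and -0.26 in parental and resistant BT474 cells. The clone was higher than the parental line in both pairs, and the order of the 4 arrays was that of HMOX1 and GCLM. The log2 fold change was 0.90 ± 0.20 in SkBr3/Lap, under 2-fold, and 1.09 ± 0.20 in BT474/Lap, or 2.13-fold higher. Median scaling took both values across 2-fold, to 1.06 in the SkBr3 clone and 0.89 in the BT474 clone. TXN, the thioredoxin that the enzyme renews, had log2 fold changes of -0.32 and 0.24, with 0.05 and 0.19 from a second probe. SRXN1 encodes sulfiredoxin, which repairs overoxidized peroxiredoxins. It had the highest level of the 10 genes in SkBr3, at 3.62, a ranking across probes that also depends on how well each probe binds. Its level was 3.13 in the resistant SkBr3 clone, 1.82 in BT474 and 0.78 in the resistant BT474 clone. The clone was the lower array in both pairs. The log2 fold change was -0.49 ± 0.20 in SkBr3/Lap, and the level was 2.06-fold lower in BT474/Lap (log2 -1.04 ± 0.20). The BT474 value was -0.99 under quantile normalization and -0.93 when dim probes were left out of the percentile.

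NQO1 encodes the quinone reductase that is often used as a readout of NRF2. Its log2 level was -0.10 and -0.72 in parental and resistant SkBr3 cells and -0.32 and 0.19 in parental and resistant BT474 cells, and the SkBr3 clone was the lowest array and the BT474 clone the highest. The log2 fold change was -0.63 ± 0.20 in SkBr3/Lap and 0.51 ± 0.20 in BT474/Lap, under 2-fold in both.

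Promoter sequence is shown for GCLM and TXNRD1, the genes whose windows held the core of the antioxidant response element, and for AKR1C1, which was higher in both clones and whose window did not. The core was searched as TGACNNNGC on both strands, from 250 bases before to 50 bases after each start site in RefSeq for GRCh38.p14. Windows were given for 7 of the 10 genes, 9 in all, and not for HMOX1, SLC7A11 and AKR1B10. The core was in 3 of these windows and in 4687 of 35116 windows of all genes, or 13.3%. Each sequence below runs 5′ to 3′ along the gene's own strand through the first 30 bases after the start, with matches in capitals. In GCLM (chr1:93909401-93909680, minus strand) the match lay on the opposite strand and began 34 bases before the start. In the upstream window of TXNRD1 (chr12:104215529-104215808, plus strand) matches began 99 and 8 bases before the start, the latter on the opposite strand. In its downstream window (chr12:104286782-104287061, plus strand) the match began 102 bases before the start on the opposite strand. The window of AKR1C1 is chr10:4963165-4963444, plus strand. A match says only that these letters are there.
GCLM: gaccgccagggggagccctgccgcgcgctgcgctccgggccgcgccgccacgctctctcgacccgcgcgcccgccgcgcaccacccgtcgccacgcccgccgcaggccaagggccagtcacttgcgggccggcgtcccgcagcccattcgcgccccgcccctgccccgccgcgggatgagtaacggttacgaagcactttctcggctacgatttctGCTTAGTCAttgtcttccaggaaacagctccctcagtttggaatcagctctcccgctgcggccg
TXNRD1 upstream: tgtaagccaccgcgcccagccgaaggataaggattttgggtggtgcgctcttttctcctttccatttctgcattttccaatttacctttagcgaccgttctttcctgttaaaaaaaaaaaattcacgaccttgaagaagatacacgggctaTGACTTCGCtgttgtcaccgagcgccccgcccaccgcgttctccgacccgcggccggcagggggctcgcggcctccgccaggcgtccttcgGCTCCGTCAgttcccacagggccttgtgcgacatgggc
TXNRD1 downstream: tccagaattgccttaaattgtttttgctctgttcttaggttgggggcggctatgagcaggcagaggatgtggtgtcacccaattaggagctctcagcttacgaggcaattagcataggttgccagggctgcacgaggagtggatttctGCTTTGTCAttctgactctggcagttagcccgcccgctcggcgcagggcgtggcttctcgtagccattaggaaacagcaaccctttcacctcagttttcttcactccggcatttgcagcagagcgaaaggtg
AKR1C1: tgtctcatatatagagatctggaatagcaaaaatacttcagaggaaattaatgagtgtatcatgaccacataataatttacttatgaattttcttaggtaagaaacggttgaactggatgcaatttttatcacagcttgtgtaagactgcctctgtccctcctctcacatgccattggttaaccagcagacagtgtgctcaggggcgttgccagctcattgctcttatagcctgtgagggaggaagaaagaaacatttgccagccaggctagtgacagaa

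Most of these genes had higher levels in parental SkBr3 than in parental BT474 cells. The difference reached 2-fold in that direction for 7 of the 10, against 19.1% of all genes, and in the other for 1, SLC7A11, against 19.7%. The median difference was 2.04 on the log2 scale, against 0.03 over all genes. HMOX1 was 6.75-fold higher in SkBr3, AKR1B10 5.46-fold, TXNRD1 4.90-fold, GCLM 4.86-fold, SRXN1 3.49-fold and GCLC 2.53-fold, and AKR1C1 was at least 4.29-fold higher. SLC7A11 was 5.81-fold lower in SkBr3, and it passed the filter on low signals only through BT474, the array in which it was counted as higher. The log2 difference was 0.22 for NQO1 and -0.30 for NFE2L2. HMOX1, GCLM, TXNRD1, AKR1C1 and AKR1B10 had a single order of the arrays, with SkBr3/Lap highest, then SkBr3, BT474/Lap and BT474. Neighbors in this order differed by more than the error except SkBr3 and BT474/Lap for AKR1B10. For AKR1C1 the signal in BT474 was not well above background, so that its last step is known only as at least 1.80-fold. Parental BT474, in which all 5 were lowest, was the line with the highest SLC7A11.

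**Figure D2:**
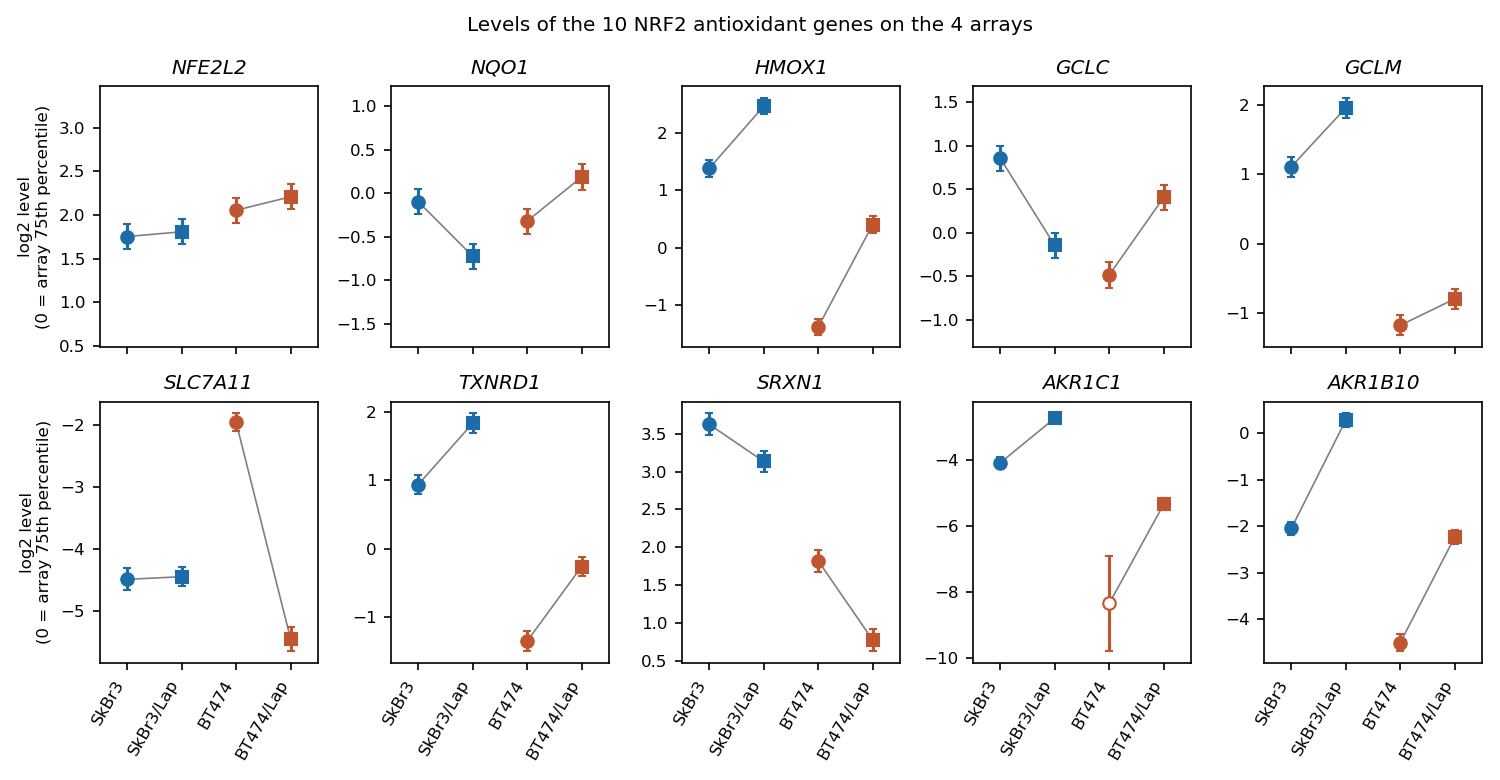
Log2 level (y axis, 0 at the 75th percentile of the array, with a scale of its own for each gene) of the 10 genes on the 4 arrays (x axis). Circles are parental lines, squares are resistant clones, the open circle is a signal not well above background, bars are the error estimate of the scanning software and lines join each clone to its parental line. HMOX1, GCLM, TXNRD1, AKR1C1 and AKR1B10 share the order of the arrays, while GCLC and NQO1 slope down in the SkBr3 pair and up in the BT474 pair.

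A wider list of 63 genes of NRF2 regulation and its target pathways was set beside the 10 genes, and its balance of rises and falls depended on the scaling. A probe was matched for 58 of them and kept for 57. In SkBr3/Lap, 10 of the 57 were at least 2-fold higher and 8 lower, or 17.5% and 14% against 14.1% and 14.4% of all genes, with a median log2 fold change of 0.02. In BT474/Lap, 6 were higher and 7 lower, or 10.5% and 12.3% against 9.2% and 5.4% of all genes, with a median of -0.14. Median scaling gave 14 higher and 6 lower in SkBr3/Lap, and 3 higher and 8 lower in BT474/Lap. By role, the 12 regulators and partners had a median of 0.61 in the SkBr3 clone and -0.18 in the BT474 clone, with 2 (SQSTM1 and GSK3B) at least 2-fold higher in the former and none in the latter, and the 11 genes of glutathione use had -0.25 and 0.16. The 11 genes of carbonyl and quinone reduction and of conjugation, the role of NQO1 and the aldo-keto reductases, had 3 higher and 3 lower in SkBr3/Lap and 4 higher and 1 lower in BT474/Lap. Of the 6 genes that supply NADPH, 1 was higher and 1 lower in SkBr3/Lap and none reached 2-fold in BT474/Lap. The 6 thioredoxin genes held 1 change, a fall in BT474/Lap, the 7 genes of heme and iron held 1 fall in each clone, and the 4 export pumps held 2 rises in SkBr3/Lap and 2 falls in BT474/Lap. These counts include falls of ALDH3A1 in SkBr3/Lap and ABCC4 in BT474/Lap in which neither signal was well above background. They also include rises of genes that passed the filter on low signals only where they were higher. Among them were ALDH3A1 in BT474/Lap, ABCC4 in SkBr3/Lap and AKR1C3 in both clones.

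Of the 57, 3 rose by at least 2-fold in both clones, or 5.26%, against 3.07% of all genes, and these were AKR1B1, AKR1C3 and UGT1A6. AKR1C3 was not well above background in BT474. It passed the filter on low signals only through the clones, in which it was counted as higher. AKR1B1 in BT474/Lap was under 2-fold in 4 of 11 alternative settings, among them median scaling at 0.86. UGT1A6, a glucuronosyltransferase whose probes may also bind the other transcripts of the UGT1A locus, rose 13.3-fold in SkBr3/Lap and 3.55-fold in BT474/Lap. GSTP1, EPHX1 and BLVRA were at least 2-fold lower in both, against 1.45% of all genes, and in BT474/Lap all 3 lay near the threshold, with log2 fold changes of -1.09, -1.0 and -1.02. With dim probes left out of the percentile, none of the 3 reached 2-fold there. GSTP1, a glutathione transferase, was 31.8-fold and 2.12-fold lower, and EPHX1, an epoxide hydrolase, was 5.13-fold and 2.0-fold lower. The signal of GSTP1 in SkBr3/Lap was low, at 33.6, and its log2 fold change there ranged from -5.02 to -3.16 over the alternative settings. Another 3 genes, or 5.26%, differed by 2-fold in opposite directions by their signals, against 3.58% of all genes, and of these only GPX2 had signals well above background in both pairs. GPX2, a glutathione peroxidase, was 12.6-fold lower in the SkBr3 clone and 2.21-fold higher in the BT474 clone, the latter under 2-fold in 4 of 11 alternative settings, among them median scaling at 0.94. GPX2 passed the filter on low signals only through SkBr3 and BT474/Lap, the higher array of each pair. ALDH3A1 was at least 4.88-fold higher in BT474/Lap and not well above background in SkBr3 and its clone. ABCC4 was at least 3.78-fold higher in SkBr3/Lap and not well above background in BT474 and its clone. The rise of ABCC4 stayed past 2-fold in 8 of 10 alternative settings and was 0.94 on the log2 scale with the mean over all its probes. ALDH3A1 passed the filter on low signals only through BT474/Lap and ABCC4 only through SkBr3/Lap. Each was thus counted as higher in the array that admitted it.

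**Figure D3:**
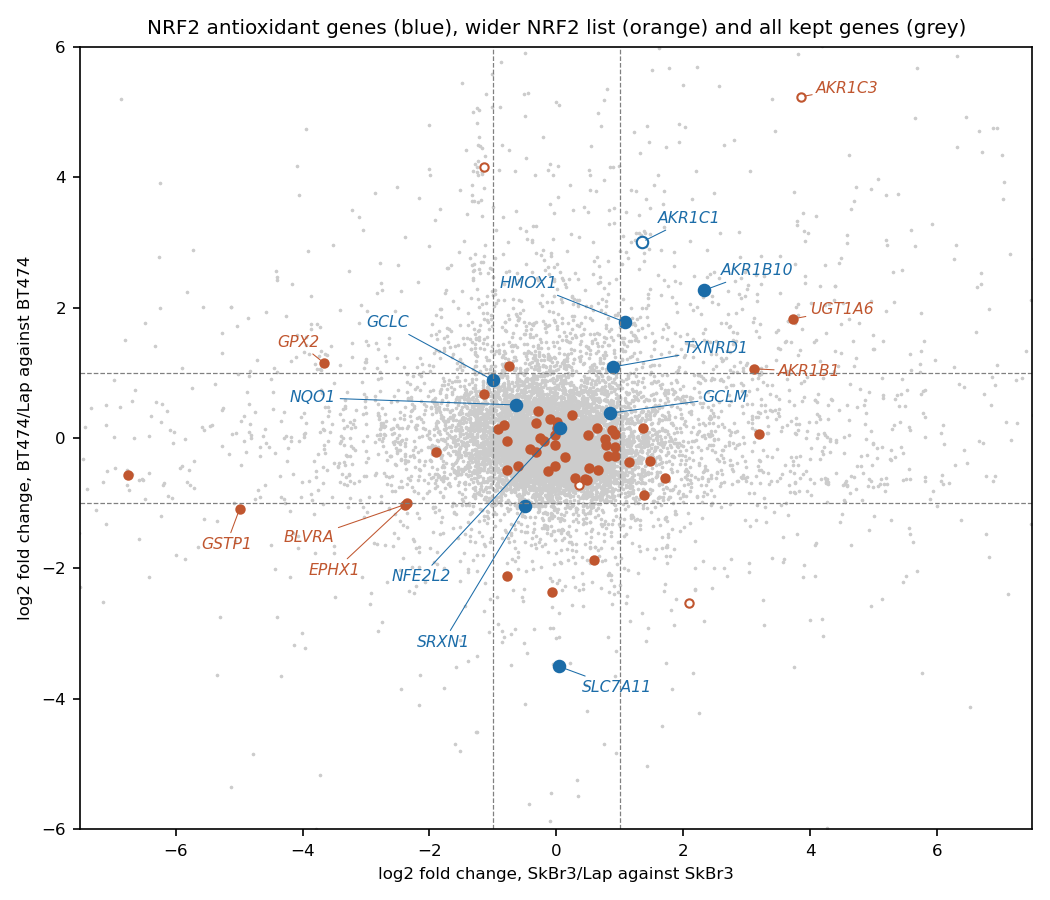
Log2 fold change in SkBr3/Lap (x axis) against that in BT474/Lap (y axis) for the 10 genes (blue), the wider list (orange) and all genes kept (grey), with 95 grey points beyond the axes, dashed lines at 2-fold and open symbols where a signal was not well above background. AKR1B10, AKR1C1, HMOX1, AKR1B1, AKR1C3 and UGT1A6 lie past 2-fold to the upper right, and SLC7A11 lies on the vertical zero line at -3.50.

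**Figure D4:**
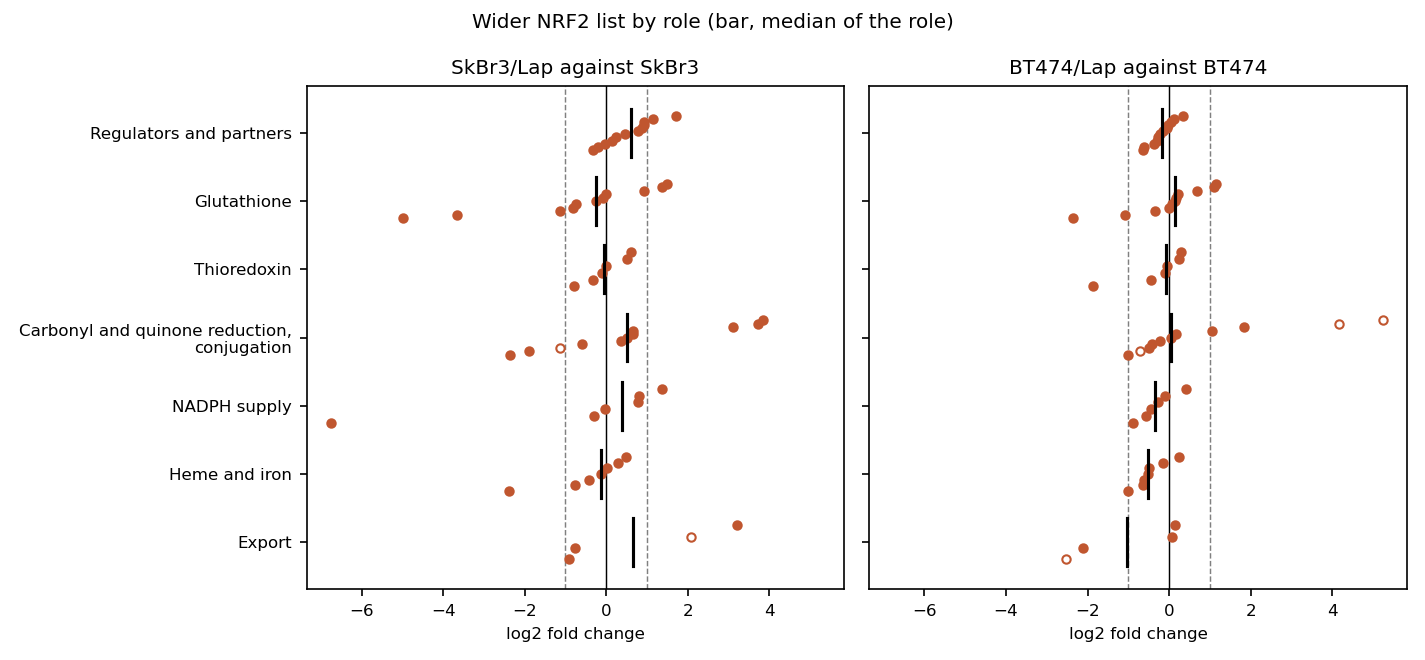
Log2 fold change (x axis) of the 57 genes of the wider list by role (y axis) in SkBr3/Lap (left) and BT474/Lap (right). Points are genes, open where a signal was not well above background, bars are the median of the role and dashed lines mark 2-fold. In BT474/Lap all 12 regulators and partners lie between the dashed lines.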

How the data were processed

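Gene expression was measured in SkBr3, BT474 and 1 lapatinib-resistant clone of each. Per the file headers, the authors deposited for each spot a processed signal with its error estimate and flags, which is an intensity corrected for background and spatial trend in Feature Extraction 10.1.1.1. The authors also deposited a log2 table, in which the differences between arrays were within 0.62 of those computed from the signals. The study's methods name an earlier version of the software and rank-consistency-filtered LOWESS normalization, whereas the headers give the version above and a single dye. The columns of the table had medians of -0.20 to 0.12, and their scale and centering beyond this remain unknown. The sample labels and the study's text give the clone numbers the other way round, so groups rest on cell line and resistance.

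Spots of a probe were averaged on the log2 scale, and the 75th percentile of all 41000 probes on the array was subtracted. Probes were kept at a signal of at least 100 on at least 1 array, 25927 in all, and counted as well above background where at least 50% of their spots were so marked. Where a gene had several kept probes, the one with the highest mean level stood for it. Changes of at least 2-fold were counted. Where 1 signal of a pair was dim, the lowest signal well above background on that array replaced it and the fold change is a limit. The number of arrays limits the precision. Probes were named through RefSeq accessions (GRCh38.p14, names only, 23680 probes), and 13 of the 15 probes of the 10 genes were kept. The genes named are the 10 members, their partners KEAP1, BACH1, the small MAF genes, TXN, SLC3A2 and the aldo-keto reductases, and genes of the wider list changed at least 2-fold in both clones; others were chosen after their values were seen, as stated. The members and lists were chosen with earlier results of these data known. Alternatives were other scalings, quantile normalization, normexp (offset 50, limma 3.58.1, R 4.3.3), the deposited table, an addition of 16, filters, limits, probe choice and a 3-fold threshold. Fold calculations were tested on simulated data. Python 3.11.15, numpy 2.4.6 and pandas 2.3.3 were used.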

Additional observations from a re-analysis of the deposited data

Results flagged for a closer look

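Several genes moved in opposite directions in the clones, each by more than the error estimate of the scanning software, and in none of these cases was the difference between the clones tested, since each rests on 1 array per group. NQO1 was at -0.63 (log2 fold change) in SkBr3/Lap and at 0.51 in BT474/Lap. GCLC had -1.0 in SkBr3/Lap and 0.89 in BT474/Lap. For GPX2 the values were -3.65 and 1.15, and it passed the filter on low signals only through the higher array of each pair. MAFK was at 0.92 in SkBr3/Lap and -0.28 in BT474/Lap, with 0.64 and 0.03 from a second probe. TXN was at -0.32 and 0.24, and its second probe at 0.05 and 0.19 did not change sign.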

How the results depend on the processing

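No paired analysis was possible because there is 1 array per group. All 10 changes of at least 2-fold among the 10 genes kept their sign under each alternative. HMOX1 and SLC7A11 in BT474/Lap and AKR1B10 in both clones also stayed past 2-fold under each. The others lost 2-fold under at least 1 alternative, with lowest sizes of 0.99 for HMOX1, -0.84 for GCLC and 0.87 for AKR1C1 in SkBr3/Lap, and 0.89 for TXNRD1, -0.93 for SRXN1 and 0.57 for AKR1C1 in BT474/Lap. GCLM and TXNRD1 in SkBr3/Lap reached 2-fold with median scaling, which moved the median of all genes by 0.16 in the SkBr3 pair and -0.21 in the BT474 pair, and GCLC in BT474/Lap did with the percentile over probes well above background, which moved it by 0.11 there. Relative to the median of all genes, both shifts cancel. Median scaling also turned the sign of NFE2L2 in BT474/Lap (-0.05), and the addition of 16 that of SLC7A11 in SkBr3/Lap (-0.13).

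Of 175 recomputed counts and medians of the gene lists, 150 stayed within 1.5 times or within the error. Median scaling gave 5 of the 10 genes higher and 0 lower in SkBr3/Lap, a median of 0.49 for them in BT474/Lap, and 3 higher and a median of -0.35 for the wider list in BT474/Lap; over all genes it gave 2047 higher and 1418 lower in SkBr3/Lap and 906 and 1038 in BT474/Lap, against 1720, 1754, 1119 and 657. The percentile over probes well above background gave 1 of the 10 genes and 4 of the wider list lower in BT474/Lap, with 536 of all genes lower there. Quantile normalization gave 0 of the 10 lower in SkBr3/Lap, 1 lower in BT474/Lap and a median of 0.22 for the wider list in SkBr3/Lap. Over all genes it gave 1490 lower in SkBr3/Lap and 752 lower in BT474/Lap. Normexp with quantile normalization gave 1 higher and 0 lower in SkBr3/Lap, 2 higher and a median of 0.46 in BT474/Lap, 3 of the wider list lower in BT474/Lap and a median of 1.53 between the parental lines. Over all genes it gave 1383 higher and 1141 lower in SkBr3/Lap and 759 higher and 510 lower in BT474/Lap. The addition of 16 left 0 lower in SkBr3/Lap, with 1603 of all genes lower there. Over the 9 genes well above background on all 4 arrays the median was 0.054 in SkBr3/Lap and 1.80 between the parental lines. At 3-fold, 1 of the 10 was higher and 0 lower in SkBr3/Lap and 1 lower in BT474/Lap, and of the wider list 6 were higher in SkBr3/Lap and 3 higher and 4 lower in BT474/Lap. No count over all genes is given at 3-fold, so these counts cannot be set against it. The alternatives for the parental lines and for single genes of the wider list were added after seeing the data. Signals near background, as for AKR1C1 and SLC7A11, give the least precise values.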

Other observations

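Some genes of the wider list changed by more than 3-fold in one clone and less than 2-fold in the other, and those named here were chosen after their values were seen. ME1, the cytosolic malic enzyme that supplies NADPH, was 107.7-fold lower in SkBr3/Lap (log2 -6.75) and had a log2 fold change of -0.57 in BT474/Lap. Its signal in SkBr3/Lap was low, at 68.4, and the log2 value there ranged from -7.97 to -5.08 over the alternative settings. A second probe gave at least 165-fold lower in SkBr3/Lap. ABCC2, an export pump for glutathione conjugates, was 9.21-fold higher in SkBr3/Lap and at 0.07 in BT474/Lap. In BT474/Lap, where SLC7A11 was 11.3-fold lower, CHAC1, which breaks down glutathione, was 5.13-fold lower, ABCC3, an export pump, was 4.35-fold lower and SESN2, a sestrin induced by stress, was 3.66-fold lower. Their log2 fold changes in SkBr3/Lap were -0.07, -0.77 and 0.60.

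CBR1, a carbonyl reductase, had signals of 9132 in SkBr3 and 21843 in SkBr3/Lap and was not well above background in BT474 and its clone, so that it was at least 594.4-fold higher in SkBr3 than in BT474. The value rests on a single probe, which passed the filter on low signals only through SkBr3 and its clone. CBR1 was also chosen after its values were seen. The 5 probes of FTH1, the ferritin heavy chain, gave log2 fold changes from -0.95 to 1.29 in the SkBr3 pair and from -1.35 to -0.40 in the BT474 pair, so that no direction is given for it in SkBr3/Lap.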
